A study of Mus musculus with 5 samples.

Results

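Endothelial nuclei of interscapular brown adipose tissue (iBAT) were picked from a single-nuclei RNA sequencing (snRNAseq) matrix that holds WT and Ucp1-STX4KO male mice of 3 months. A barcode counted as an endothelial nucleus when it had at least 400 UMIs, of which at least 4 came from at least 2 of 8 endothelial genes (Pecam1, Cdh5, Flt1, Kdr, Tek, Ptprb, Emcn and Cyyr1). It could have at most 1 UMI summed over 7 genes of other cells (Ptprc, Mrc1, Pdgfra, Abcc9, Rgs5, Skap1 and Cadm2). A UMI (unique molecular identifier) stands for 1 captured RNA molecule. The rule found 547 nuclei among the 20307 barcodes of the matrix (2.69%, exact Clopper-Pearson 95% interval 2.48 to 2.93%), and the series holds 50307 barcodes in 5 libraries. The WT mice were littermate controls, and the Ucp1-STX4KO mice carried Ucp1-Cre together with floxed STX4, all on a C57BL/6J background. The Ucp1 promoter drives the Cre in brown adipocytes, so endothelial cells were not the targeted cells. The other matrix of the series holds C57BL/6J mice of 2, 12 and 24 months and serves below only as a set of libraries that the choice of genes did not use. The labels give brown adipocytes as the cell type of every library, and the homogenisation was tuned to favour adipocyte nuclei before the sort, so the endothelial nuclei are those that passed that preparation.

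There is 1 library per genotype, and the 4 male mice named for the method are not assigned to libraries, so no value has a replicate and no p-value was computed. The digit that ends each barcode separates the libraries, and no label ties it to a genotype. Libraries are therefore called library 1 and library 2 by that digit, and nothing said of them is a statement on WT or Ucp1-STX4KO mice. Each level is a gene's UMI sum in a set of nuclei divided by all UMIs of that set, per 1000000 (CPM). All intervals are exact at 95%, cover counting error only and leave out the spread between mice.

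Endothelial cells line every blood and lymphatic vessel, and in brown fat a dense capillary bed delivers oxygen, fatty acids and glucose to the adipocytes. VEGF and angiopoietin receptors, VE-cadherin junctions and transcription factors of the ETS, SOX17 and KLF families keep these cells in their state. Capillary endothelium of fat also holds lipoprotein lipase at its surface through GPIHBP1 and takes up the released fatty acids.

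The endothelial nuclei were spread unequally over the libraries. Library 1 gave 102 of 11201 barcodes (0.911%, 0.743 to 1.104%) and library 2 gave 445 of 9106 (4.89%, 4.45 to 5.35%). The libraries also differed in depth. The smallest barcode of library 1 had 2053 UMIs and that of library 2 had 424. The median endothelial nucleus had 2856 UMIs in library 1 and 1426 in library 2, and 334 of the 445 nuclei of library 2 (75.1%) lay under the smallest barcode of library 1. Among barcodes of at least 2053 UMIs, the shares were 0.911% in library 1 and 1.77% (1.46 to 2.13%; 111 of 6254) in library 2. With every barcode thinned to 1000 UMIs they were 0.679% (76 nuclei) and 3.70% (300 of 8112), which left out 994 shallower barcodes of library 2 and none of library 1. The order of the libraries was the same in all 3 counts and the gap was smallest when only deep barcodes were counted. These are shares of sorted nuclei.

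The 8 genes of the rule gave a median of 10 UMIs per endothelial nucleus (range 4 to 88), with 22 in library 1 and 9 in library 2, and a median of 5 of the 8 genes was detected. These values chose the nuclei and are a description. Flt1, the decoy and signalling receptor for VEGF, had 711 UMIs in library 1 (1322 CPM) and 1488 in library 2 (1482 CPM), against 1.23 and 2.72 CPM in adipocyte nuclei, whose own rule kept Flt1 low. Cyyr1 had 1014 and 979 CPM, and Ptprb, the phosphatase that acts on the angiopoietin receptor TEK, 480 and 869 CPM. Of the 7 genes of other cells, 454 of the 547 nuclei had 0 UMIs and 93 had 1. At the threshold, 44 nuclei had exactly 4 UMIs of the 8 genes, and 50 barcodes with 3 UMIs stayed outside. Summed over 12 endothelial markers that the rule did not use, nuclei with 4 UMIs held 2604 CPM, those with 3 UMIs 1226 CPM, and those with 10 or more UMIs 4419 CPM. On the other threshold, 28 barcodes with 2 UMIs of the genes of other cells were left out, and their 12-marker level of 3925 CPM was close to the 3797 CPM of the 93 nuclei with 1. The barcode sequence of 23 barcodes occurs in both libraries, and 1 of these is carried by an endothelial nucleus.

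RNA of brown adipocytes was counted in every nucleus type of these libraries. A list of 17 adipocyte genes, Ucp1, Adipoq and Plin1 among them, reached 12845 CPM among endothelial nuclei of library 1 and 17073 CPM among those of library 2. Adipocyte nuclei held 17151 and 31537 CPM of the same list, mural nuclei 9033 and 12358, and stromal nuclei 5739 and 6689. These comparison nuclei were picked by rules of the same form, with 587 mural, 653 stromal, 794 macrophage and 15041 adipocyte nuclei. All endothelial nuclei together thus stood above mural, stromal and macrophage nuclei (9486 and 7748 CPM) on this list. Without the unnamed subgroup 2 the list was at 5952 and 10519 CPM, below mural nuclei in both libraries and macrophage nuclei in library 1. It stayed above stromal nuclei in library 2, while in library 1 the intervals overlapped (5599 to 6320 against 5603 to 5876 CPM). The list rose with depth: in library 1 the 51 shallower endothelial nuclei held 6044 CPM of it and the 51 deeper ones 14871, while the 12 endothelial markers went from 9172 to 2363 CPM. In library 1, all 39 nuclei of the unnamed subgroup 2, described with the subgroups, had at least 3846 UMIs and so lay above the median. Over both libraries this subgroup holds 93 of the 547 nuclei and 48.3% of their UMIs (66.7% in library 1 and 38.5% in library 2). The part of free RNA and of droplets with more than one nucleus in these levels was not tested.

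**Figure D1:**
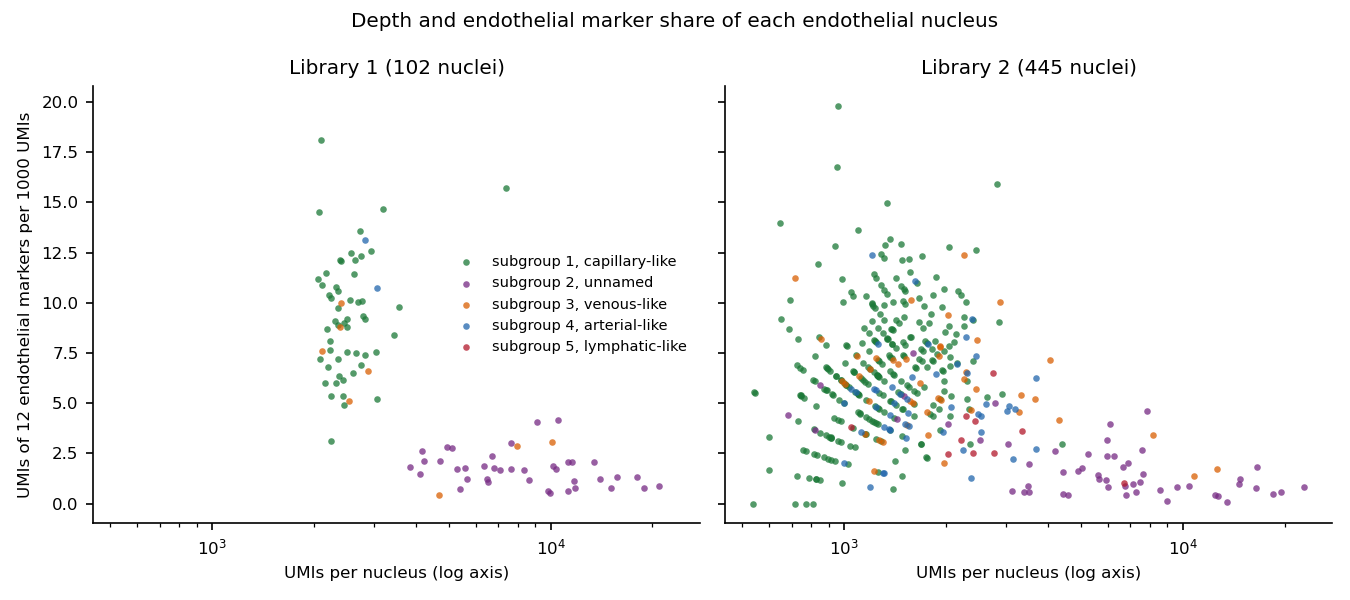
Each point is an endothelial nucleus of library 1 (left, 102 nuclei) or library 2 (right, 445 nuclei), placed by its UMIs (log axis) and by the UMIs of 12 endothelial markers outside the selection rule per 1000 UMIs, and coloured by subgroup. By median depth subgroup 2 lies at the right in both libraries, at 8355 and 6005.5 UMIs, with a smallest nucleus of 682 UMIs in library 2. It also lies low, with medians of 1.70 and 1.33 marker UMIs per 1000 against 9.20 and 6.57 in subgroup 1.

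**Figure D2:**
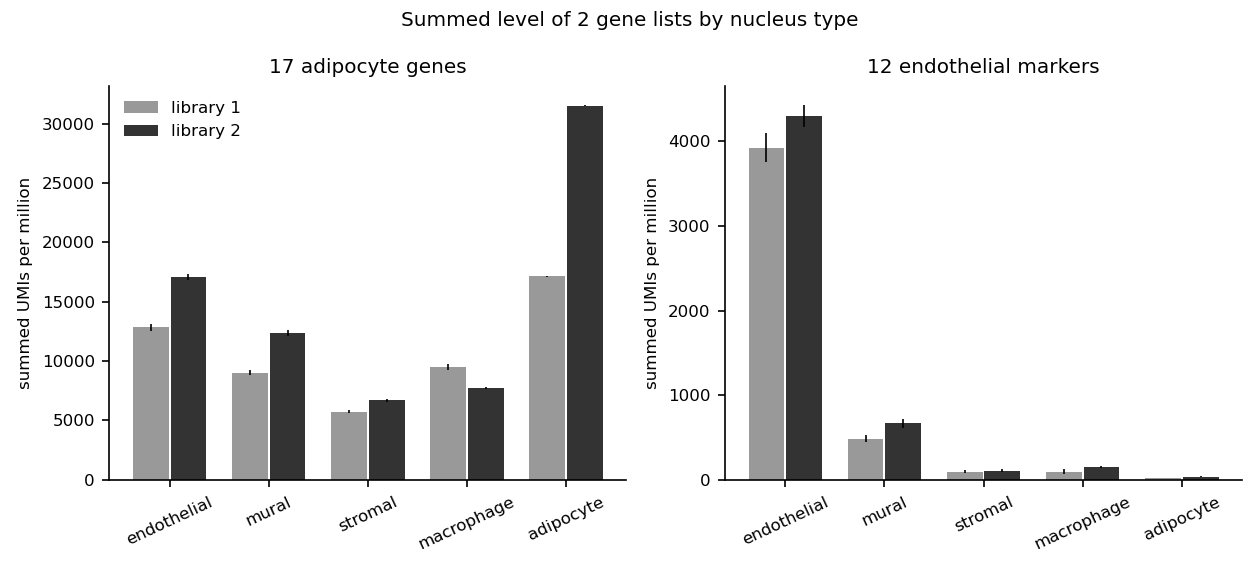
Bars give the summed CPM of 17 adipocyte genes (left) and of 12 endothelial markers (right) in 5 nucleus types and both libraries, with exact 95% Poisson intervals as lines and axes from 0. Endothelial nuclei held 3926 and 4303 CPM of the endothelial markers and more of the adipocyte list than mural, stromal and macrophage nuclei did, whereas without subgroup 2 the adipocyte list was at 5952 and 10519 CPM, below mural nuclei.

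Endothelial markers that the rule had not used were present in nearly all nuclei, and outside subgroup 2 they stood at 8631 and 6165 CPM. The 93 nuclei of subgroup 2 go against a plain endothelial label, with 1450 CPM of these markers and 22123 CPM of the adipocyte list, a level like that of adipocyte nuclei. The 12 markers outside the rule summed to 3926 CPM in library 1, with an interval of 3761 to 4097, and to 4303 CPM in library 2, with an interval of 4176 to 4434, against 483 and 668 CPM in mural nuclei and 19.2 and 37.8 CPM in adipocyte nuclei. At least 1 UMI of the 12 was present in all 102 nuclei of library 1 and in 441 of 445 (99.1%) of library 2. In adipocyte nuclei, which should lack these genes, 11.6% and 15.4% had such a UMI at median depths of 6172 and 4504.5 UMIs. The shares were 82.2% and 73.4% in mural, 33.3% and 32.5% in macrophage, and 30.7% and 28.8% in stromal nuclei. Because the rule chose nuclei by their RNA, each comparison of endothelial with other nuclei describes what goes along with the rule and was given no test.

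Of 15831 genes with at least 50 UMIs over the 5 nucleus types, 270 (1.71%) had a CPM interval above those of mural, stromal, macrophage and adipocyte nuclei in both libraries. A single gene, Zeb2, lay below all 4 types in both (0.00632%), with 211 and 644 UMIs. It encodes a zinc-finger repressor and was named after its values were seen. Against all other nuclei together, 286 of 8686 genes (3.29%) were at least 2-fold higher in both libraries and 115 (1.32%) at most 0.5-fold. With TMM scaling, which lowers every ratio by 0.29 on the log2 scale in library 1 and by 0.07 in library 2, these counts were 210 and 189. That count required enough expected UMIs at equal levels, which many endothelial genes are too rare in adipocytes to meet. A minimum of 20 UMIs in the endothelial nuclei of each library was used in its place, a choice made after seeing the data. Of 5001 genes, 478 (9.56%) were then higher and 2 lower. This minimum admits genes through their endothelial counts, so the excess of higher genes is partly set by it and is a description. The median gene of all had a ratio of 0.904 in library 1 and 0.943 in library 2.

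Among the 12 markers outside the rule, 11 were highest in endothelial nuclei in both libraries. Adgrl4, an adhesion receptor of the vessel lining (chr3:151437887-151545086, plus strand, GRCm38), had 658 UMIs in library 1 (1224 CPM) and 712 in library 2 (709 CPM), and adipocyte nuclei held 2.14 and 3.21 CPM. It led the genes counted as higher, at 268-fold (235 to 307) over other nuclei in library 1 and 113-fold in library 2. Cldn5, the tight-junction claudin of endothelium, had 179 and 162 CPM against at most 4.24 CPM in mural nuclei. Tie1, the orphan partner of TEK, had 167 and 146 CPM. Robo4, a guidance receptor of the endothelial surface, had 106 and 94.6 CPM and no UMI in mural nuclei. Egfl7, a secreted protein of endothelial cells, had 333 and 534 CPM, and Ushbp1 266 and 324 CPM. Adgrf5 was shared with mural nuclei more than these genes were, at 541 and 519 CPM against 290 and 339 CPM. Esam, an adhesion molecule of tight junctions, was the 1 of the 12 that did not stand apart over all endothelial nuclei. It had 113 CPM (library 1) and 124 CPM (library 2) beside 82.7 and 92.3 CPM in mural nuclei. Within the capillary-like subgroup 1, described below, Esam was at 232 and 218 CPM.

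**Figure D3:**
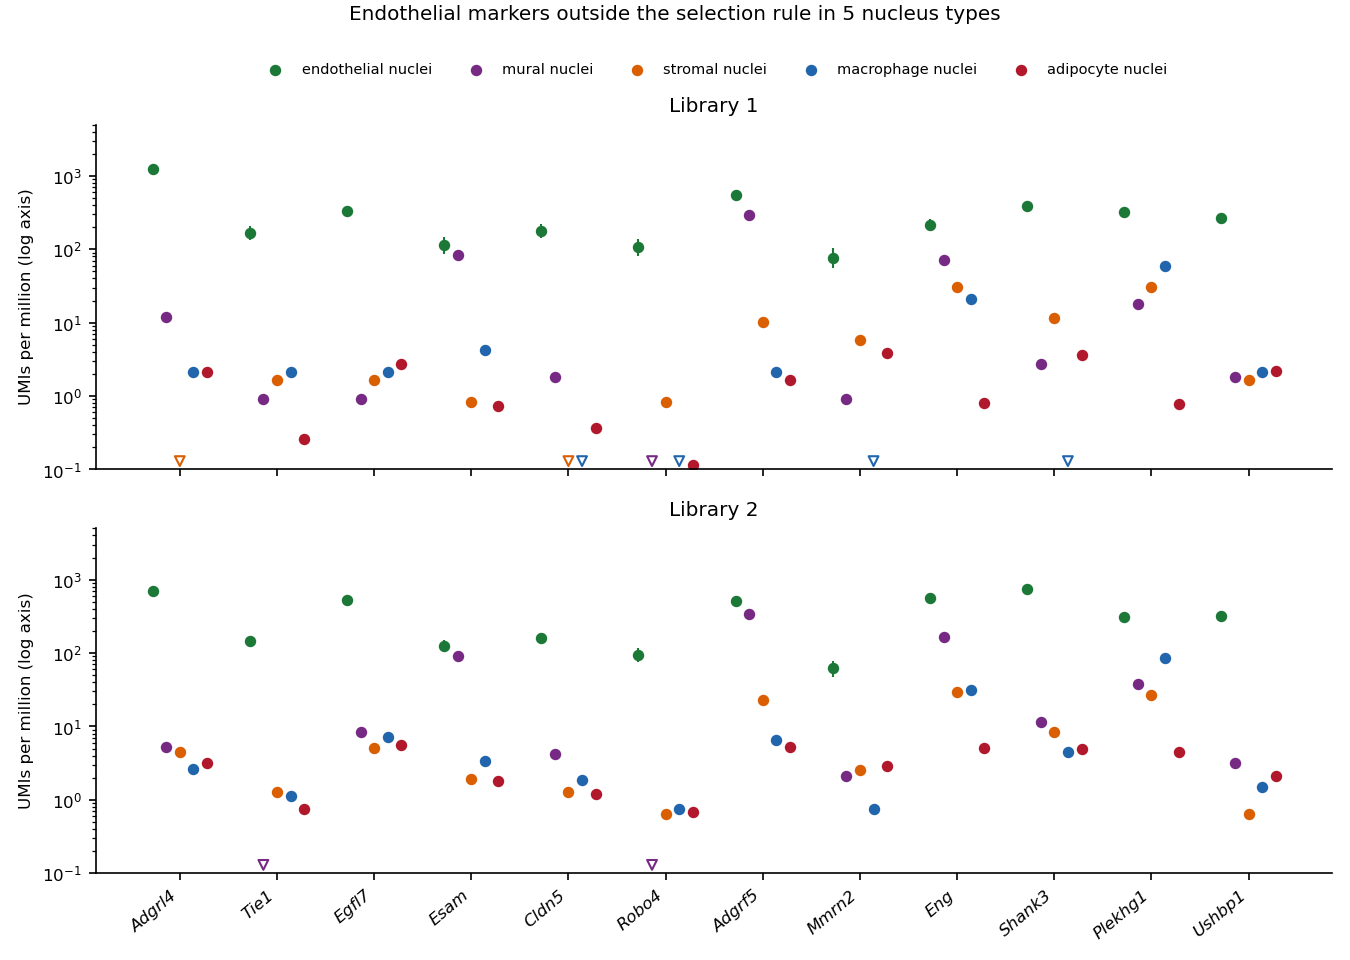
Points give the CPM (log axis) of 12 endothelial markers outside the rule in 5 nucleus types, library 1 above and library 2 below, with exact 95% Poisson intervals for endothelial nuclei and open triangles for genes with 0 UMIs. Endothelial nuclei are highest at every marker, while Esam, Adgrf5 and Eng come nearest to them in mural nuclei.

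Among the genes counted as higher, the 20 with the highest ratio after summing both libraries, an order that differs within single libraries, were Adgrl4, Ccdc85a, Etl4, Adgrf5, Cdh13, Plpp1, Mcc, Pkp4, Fli1, Myo1d, Itga6, Elk3, Apbb2, Tspan9, Slfn5, Rapgef5, Itpkb, Fbxl7, Arhgap31 and Gfod1. Cdh13, the GPI-anchored cadherin that binds adiponectin, had 1094 and 1257 CPM against 9.73 and 87.3 CPM in other nuclei. Itga6, the laminin-binding integrin chain, had 197 and 385 CPM, a ratio of 22.3 in library 1 and 15.6 in library 2. Plpp1, which dephosphorylates bioactive lipids, had 275 and 553 CPM, and Pkp4, an armadillo protein of adherens junctions, 783 and 638 CPM. Some of the 20 were also high in a neighbouring type. Fbxl7 had 556 and 756 CPM here and 640 and 449 CPM in stromal nuclei, and Apbb2 had 666 and 707 CPM here and 452 and 435 CPM in mural nuclei. With the minimum of 20 UMIs per library, the leading genes were Dipk2b, Podxl, Robo4, Adgrl4, Ablim3, Btnl9, Tie1, Rassf9, Erg and Bmp6. Podxl, the sialomucin that lines the vessel lumen, had 128 and 212 CPM against 0.515 and 1.70 CPM in other nuclei. Dipk2b had 106 and 96.6 CPM and no UMI in mural or stromal nuclei of either library.

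Promoters of endothelial genes were searched for short letter strings of 4 factor families, since Erg and Fli1 of the ETS family were themselves high. The windows run from 250 bases before to 50 after a start and come from RefSeq (GRCm38.p6). Of the 286 genes, 228 matched, with 342 windows. The ETS letters ACAGGAAG or CTTCCTGT stood in 7 windows (2.05%), against 3.01% of the 8950 windows of all genes tested. The SOX letters AACAAT or ATTGTT stood in 7.60% against 5.88%, the GATA letters AGATAA or TTATCT in 5.85% against 6.16%, and the KLF letters CACCC or GGGTG in 70.5% against 62.1%. The direction for ETS and GATA depended on the set of genes: with the 478 genes of the 20-UMI minimum, ETS letters stood in 3.97% of windows against 3.00% and GATA letters in 6.05% against 5.55%. With the 270 genes highest in endothelial nuclei, ETS letters stood in 2.75% against 3.38%, GATA letters stood in 8.59% against 6.78%, and KLF letters in 63.6% against 62.9%. A match is a string of letters and says nothing of binding. Of 56 endothelial-highest genes looked at, 34 had a window and 2 held the ETS letters in the 250 bases before a start. Both are among the 12 markers above: Egfl7, with the letters before both of its starts, and Ushbp1, before its start. Their upstream bases are shown as examples. Capitals mark the ETS letters, which begin 91, 82 and 64 bases before the start, and each sequence is read along the strand of its gene. Egfl7 lies on the plus strand (chr2:26580833-26581082 and chr2:26583615-26583864) and Ushbp1 on the minus strand (chr8:71395802-71396051).
Egfl7, first start: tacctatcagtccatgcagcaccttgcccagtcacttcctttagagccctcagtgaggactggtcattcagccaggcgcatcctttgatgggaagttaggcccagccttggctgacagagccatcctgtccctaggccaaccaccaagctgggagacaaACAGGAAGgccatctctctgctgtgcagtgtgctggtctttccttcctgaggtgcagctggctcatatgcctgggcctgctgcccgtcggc
Egfl7, second start: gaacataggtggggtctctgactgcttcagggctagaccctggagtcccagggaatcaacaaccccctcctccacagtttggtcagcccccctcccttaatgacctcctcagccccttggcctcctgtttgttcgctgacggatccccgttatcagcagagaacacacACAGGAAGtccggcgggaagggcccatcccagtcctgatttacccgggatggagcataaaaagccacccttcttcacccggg
Ushbp1: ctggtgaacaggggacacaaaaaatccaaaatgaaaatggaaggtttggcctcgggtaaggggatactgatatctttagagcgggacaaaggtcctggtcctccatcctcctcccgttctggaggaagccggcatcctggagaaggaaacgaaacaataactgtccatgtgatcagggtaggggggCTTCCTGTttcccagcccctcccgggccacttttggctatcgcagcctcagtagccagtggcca

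Of 22 transcription factors of endothelium, 12 of the 21 with enough UMIs were highest in endothelial nuclei in both libraries, against 1.71% of all genes. The ETS factors Erg and Fli1, which hold endothelial identity, had 98.6 and 133 CPM (Erg) and 720 and 967 CPM (Fli1). Erg was at most 1.28 CPM in mural, stromal and adipocyte nuclei. Sox17, Sox18 and Sox7, the SOX factors of vessel formation, had 27.9 and 56.8 CPM, 40.9 and 56.8 CPM, and 42.8 and 30.9 CPM. Meox2 and Tcf15 form the pair that drives fatty-acid transport genes in capillaries. Meox2 had 110 and 79.7 CPM and Tcf15 85.6 and 78.7 CPM, and both were highest in endothelial nuclei. Epas1, the oxygen-regulated factor HIF-2alpha, had 350 and 333 CPM, beside 167 and 130 CPM in adipocyte nuclei. Ets1 and Nr2f2 were counted as higher than in all other nuclei, yet mural nuclei had higher values, with 456 and 281 CPM of Ets1 against 206 and 229 CPM in endothelial nuclei and 132 and 78.5 CPM of Nr2f2 against 48.4 and 64.7 CPM. Foxo1, a brake on vessel growth, was lower here than in adipocyte nuclei, at 476 and 465 CPM (268 and 392 CPM without subgroup 2) against 723 and 704 CPM. Hhex had only 2 and 6 UMIs.

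Of 21 genes of fatty-acid and lipoprotein handling, 7 were highest in endothelial nuclei, against 1.71% of all genes. The 7 were Gpihbp1, Cd36, Fabp4, Cav2, Meox2, Tcf15 and Scarb1. Gpihbp1, the anchor of lipoprotein lipase (chr15:75596628-75599481, plus strand), had 124 UMIs in library 1 (231 CPM) and 165 in library 2 (164 CPM) and at most 1.13 CPM in adipocyte nuclei. Cd36, the fatty-acid translocase, had 2967 and 3338 CPM, and adipocyte nuclei 1792 and 2817 CPM. Fabp4, the fatty-acid carrier of both cell types, had 3368 and 2938 CPM beside 1793 and 2344 CPM in adipocyte nuclei. Without subgroup 2, Fabp4 was at 5236 and 3261 CPM and Cd36 at 4380 and 3627 CPM. Scarb1, the HDL receptor, had 138 and 151 CPM against 21.0 and 96.1 CPM. Lpl, the lipase itself, had 1237 and 2208 CPM, level with the 1234 CPM of adipocyte nuclei in library 1 and below their 3475 CPM in library 2. Acsl1, an acyl-CoA synthetase and 1 of the genes that picked the adipocyte nuclei, had 3093 and 4069 CPM against 4715 and 7969 CPM, and without subgroup 2 it was at 1063 and 2463 CPM. Pparg had 3402 and 3020 CPM against 3666 and 4565 CPM, and in the capillary-like subgroup 1, described below, 3904 and 2882 CPM.

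Among junction and barrier genes, Podxl, Cldn5, Jam2, F11r, Tjp1, Afdn, Cdh13 and Ptprm were highest in endothelial nuclei in both libraries. Jam2, a junctional adhesion molecule, had 240 and 152 CPM and at most 2.43 CPM in adipocyte nuclei. Afdn, which ties junctions to actin, had 536 and 484 CPM, 3.57-fold and 4.87-fold over other nuclei. Tjp1 (ZO-1) had 270 and 229 CPM, a ratio of 2.30 and 3.30. Plvap, the diaphragm protein of fenestrae, was low at 9.30 and 45.8 CPM, and occludin (Ocln) had 0 UMIs in both libraries, which allows up to 5.58 and 2.99 CPM. Among guidance genes, the semaphorin Sema6a (459 and 430 CPM) and the semaphorin receptor Plxna2 (361 and 452 CPM) were highest in endothelial nuclei in both libraries. Slit2 and Slit3, ligands of the ROBO receptors, were higher in stromal nuclei, where Slit3 had 1664 and 2564 CPM against 46.5 and 636 CPM here.

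Of 16 genes of BMP and TGF-beta signalling, 7 were highest in endothelial nuclei, against 1.71% of all genes. The 7 were Eng, Bmp6, Smad1, Smad6, Smad7, Id1 and Id3. Bmp6, the BMP that endothelium releases, had 374 UMIs in library 1 (696 CPM) and 404 in library 2 (402 CPM), against 1.01 and 2.04 CPM in adipocyte nuclei. Endoglin (Eng), the co-receptor, had 216 and 571 CPM, and its type I receptor Acvrl1 46.5 and 76.7 CPM. Id1, a direct BMP target, had 158 and 200 CPM against 19.9 and 5.74 CPM in adipocyte nuclei, and the inhibitory Smad6 and Smad7 had 65.1 and 117 CPM and 63.2 and 124 CPM. Bmpr1a, by contrast, had 136 and 79.7 CPM here and 192 and 220 CPM in adipocyte nuclei. In the capillary-like subgroup 1, described below, Bmpr1a was at 36.3 CPM (5 UMIs) and 61.6 CPM (24 UMIs). Bmper, a BMP modulator, was a stromal gene in these libraries (1829 and 2694 CPM against 61.4 and 161 CPM).

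Of the VEGF and angiopoietin genes outside the rule, 1 of 12 (Tie1) was highest in endothelial nuclei. Over all genes the share was 1.71%, which also stands beside the Notch and nitric oxide lists below. The ligand genes lay with the neighbours: Vegfa had 880 and 414 CPM here (447 and 320 CPM without subgroup 2) and 1214 and 865 CPM in adipocyte nuclei, and Angpt1, the TEK agonist, had 115 and 84.6 CPM here and 389 and 249 CPM in mural nuclei. Nrp1, the VEGF co-receptor, had 1348 and 715 CPM, above 781 CPM in adipocyte nuclei of library 1 and near 661 CPM in library 2. In the capillary-like subgroup 1, described below, Nrp1 was at 2387 and 953 CPM. Among 13 Notch genes, Notch1 (100 and 122 CPM), the ligand Jag2 (52.1 and 94.6 CPM) and the tip-cell and arterial ligand Dll4 (89.3 and 13.9 CPM) were highest here, while Notch3, a gene that helped to pick mural nuclei, stood there at 1092 and 672 CPM against 5.58 and 4.98 CPM. Of the 15 nitric oxide and tone genes, Nos3, the endothelial nitric oxide synthase, had 59.5 and 131 CPM and Pde2a 180 and 219 CPM, and both were highest here. The soluble guanylate cyclase genes Gucy1a1 and Gucy1b1, which receive nitric oxide, had 0 UMIs in endothelial nuclei of library 1 and 4 and 9 UMIs in library 2, against 265 and 241 CPM in mural nuclei of library 1.

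Among signals to neighbours, 4 of 12 genes were highest in endothelial nuclei, against 1.71% of all genes. That share also stands beside the leukocyte and basement membrane lists below. Kitl, the ligand of KIT, had 564 and 532 CPM against 1.37 and 9.63 CPM in adipocyte nuclei. Pdgfb, which recruits pericytes, had 138 and 336 CPM, Pdgfd had 525 and 426 CPM, and Bmp6 is given above. Apelin (Apln), Wnt2 and Il6 had 0 UMIs in both libraries. Of 15 leukocyte and MHC genes, Icam2 (24.2 and 18.9 CPM), H2-K1 (324 and 404 CPM), H2-D1 (229 and 258 CPM) and Ly6e (193 and 160 CPM) were highest here. The MHC class II genes Cd74, H2-Aa and H2-Ab1 had 1.86 to 11.95 CPM, against 100.7 to 566 CPM in macrophage nuclei. In the basement membrane list, 1 of 13 genes, the laminin chain Lama5 (31.6 and 73.7 CPM), was highest here, and Col4a1 at 422 and 651 CPM lay below the 1382 and 1397 CPM of stromal nuclei.

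None of the 13 insulin and IGF genes, the 9 SNARE genes and the 8 pyroptosis genes with enough UMIs was highest in endothelial nuclei. Over all genes the share was also small (1.71%), so this count is near it and is no result about these lists. The insulin receptor Insr had 603 and 488 CPM beside 813 and 676 CPM in adipocyte nuclei, and without subgroup 2 it was at 263 and 489 CPM. Stx4a (chr7:127824294-127849019, plus strand), the gene that Cre removes in brown adipocytes of Ucp1-STX4KO mice, had 29 UMIs in library 1 (53.9 CPM) and 37 in library 2 (36.8 CPM), and adipocyte nuclei held 60.3 and 50.5 CPM. The ratio of library 2 to library 1 was 0.683 (0.409 to 1.15) in endothelial nuclei, an interval that includes 1. In the capillary-like subgroup 1, described below, Stx4a was lower, at 36.3 CPM (5 UMIs) and 23.1 CPM (9 UMIs). Of the pyroptosis genes that the study follows, Casp4 had the most UMIs, 11 and 34 (20.5 and 33.9 CPM), followed by Gsdmd with 7 and 13. Il1b, Nlrp3 and Tnf had 0 UMIs in both libraries and Casp1, Il18, Nlrp1b and Aim2 had 0 in library 1 and 3 to 11 in library 2. At 537652 and 1004334 UMIs in all, a gene with 0 UMIs could still have up to 5.58 CPM in library 1 and 2.99 CPM in library 2.

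Markers of other cells were low but not absent. The 9 mural genes summed to 35 UMIs in library 1 and 75 in library 2 (65.1 and 74.7 CPM), led by Cspg4 (15 and 9), Rgs5 (15 and 2) and Pdgfrb (1 and 16), with Acta2 and Myh11 at 0 in library 1. The 8 stromal genes summed to 41 and 372 UMIs (76.3 and 370 CPM) with Gsn in the lead at 23 and 112 UMIs, and the 8 macrophage genes to 3 and 87 UMIs, of which Ptprc gave 0 and 27 and Cd163 none. Lymphocyte genes gave 16 and 29 UMIs, mostly Cd247 (13 and 17), with Cd3e, Ms4a1 and Pax5 at 0, and Schwann cell genes 12 and 44 UMIs with Sox10 at 0. Skeletal muscle genes gave 1 UMI in library 1 and 262 in library 2, with Ttn at 143, and adipocyte nuclei of library 2 carried the same genes at a higher level (Ttn 1369 CPM against 142 CPM here). The selection rule capped Rgs5, Abcc9, Pdgfra, Ptprc, Mrc1, Skap1 and Cadm2 of these lists, so their low level is partly set by it. All 6 sums were below those of all other nuclei together, apart from the lymphocyte list in library 1 (29.8 against 15.2 CPM).

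A gene counted as lower is by definition higher elsewhere, so the tally of the 115 genes by type is a description. Among the 4 comparison types, 35 were highest in stromal, 33 in adipocyte, 27 in mural and 20 in macrophage nuclei. The 10 with the lowest ratio after summing both libraries, again in an order that differs within single libraries, were Lin7a, Ttn, Rgs6, Nrg2, Lhfpl3, Slc47a1, Rorb, Meg3, Eya2 and Gm28376. Rgs6, a regulator of G-protein signalling, had 3 and 5 UMIs (5.58 and 4.98 CPM) against 2126 and 1673 CPM in mural nuclei. The imprinted noncoding RNA Meg3 had 2 and 22 UMIs against 2448 and 703 CPM in stromal nuclei. No gene of the adipocyte list was among the 115, which is near the share of 1.32% over all genes tested. Without subgroup 2, 8 of the 17 adipocyte genes lay at or below 0.5 in both libraries, beside 539 of 5650 genes tested. The median ratio of the adipocyte list was then 0.443 in each library.

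Of vessel-type genes, 7 of 10 capillary, 7 of 14 arterial, 1 of 8 venous and 0 of 8 lymphatic were highest in endothelial nuclei. These counts are over endothelial nuclei as a whole, beside 0 of 17 adipocyte genes and 1.71% of all genes. The lymphatic count is near that last share. The endothelial nuclei fell into 5 subgroups when clustered with library means removed. The genes that define them are given as a description, since the same counts formed the groups. Subgroup 1, with 341 nuclei (53 in library 1 and 288 in library 2), was capillary-like. Its capillary markers summed to 7962 CPM against 3712 CPM in the remaining endothelial nuclei, led by Cd300lg (497 CPM, 8.14-fold), Car4 (230 CPM, 6.66-fold), Btnl9 (586 CPM, 5.36-fold) and Gpihbp1 (387 CPM, 4.62-fold). Car4 is a carbonic anhydrase bound to the luminal face of capillaries. The remaining nuclei hold subgroup 2, and the 12 general endothelial markers differed more than the capillary list, at 7678 CPM against 2351 CPM. The genes of highest ratio were Sdk2, Hrh2, Dok4, Trib2 and Cxcl9, with 27.0-fold at the top.

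Subgroup 4, with 50 nuclei (2 and 48), was arterial-like, with the arterial list at 5561 CPM against 944 CPM. Its leading genes were Nebl, Slc35f1, Fbln5, Col8a1 and Lama3. Fbln5, which organises elastic fibres, had 607 CPM against 14.5 CPM, the kinase Bmx 188 CPM against 4.15 CPM, the Notch target Hey1 94.3 CPM against 2.77 CPM, and Sox17 283 CPM against 31.1 CPM. Subgroup 3, with 53 nuclei (8 and 45), was venous-like, with the venous list at 2938 CPM against 691 CPM. Its arterial list was also above that of the remaining nuclei, at 1938 CPM against 1155 CPM. Vwf, Selp, Plvap, Plekha7 and Itgb4 led the subgroup. Vwf had 479 CPM against 7.16 CPM and P-selectin (Selp), which catches leukocytes on venules, 137 CPM against 2.15 CPM. Nr2f2, the venous identity factor, had 205 CPM against 43.7 CPM. The same nuclei held most of the proliferation list, at 178 CPM against 10.0 CPM, with Top2a at 8 UMIs and Mki67 at 5. In all members, 2 of 445 nuclei of library 2 and 0 of 102 of library 1 had 3 or more UMIs from 2 or more proliferation genes.

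Subgroup 5 was lymphatic-like and came from library 2 alone, with 10 nuclei, which formed no group of their own at resolution 0.3 or without the removal of library means. Reln, Ccl21a, Lyve1, Mmrn1 and Piezo2 led it, and Prox1, the master factor of lymphatic endothelium, had 393 CPM against 5.28 CPM. Lyve1, the hyaluronan receptor, had 1000 CPM against 2.64 CPM. Ccl21a, the chemokine that draws dendritic cells into lymphatics, had 2037 CPM against 3.30 CPM, and since the mouse genome holds near-identical copies and the symbol appears under 2 identifiers in the matrix, this level is uncertain. Counted nucleus by nucleus, 13 of 445 nuclei of library 2 (2.92%, 1.56 to 4.94%) had at least 3 UMIs from at least 2 lymphatic markers other than Kdr, and 0 of 102 of library 1, which allows a share of up to 2.94% by the limit of 3 counts and of 3.55% by the exact interval. The difference was not detectable at this depth.

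Subgroup 2, with 93 nuclei (39 and 54), was left unnamed. Its leading genes were Ephb2, Acsm3, Rassf6, Btc and Tmem79, and it led no list of vessel types. The median depth was 6773 UMIs, far above the 1376 of subgroup 1. The adipocyte list stood at 22123 CPM against 9494 CPM in the remaining endothelial nuclei, and the 12 endothelial markers at 1450 CPM against 6719 CPM. Of the 42 endothelial nuclei that scrublet called doublets, 40 were in this subgroup. Scrublet called 12.7% of endothelial nuclei in library 1 and 6.52% in library 2, against 15.1% and 3.81% of all barcodes. Whether these are droplets with an endothelial and an adipocyte nucleus was not tested. Without them, 433 genes in place of 270 were highest in endothelial nuclei in both libraries, 269 of the 270 among them, which is 2.74% of 15807 genes.

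**Figure D4:**
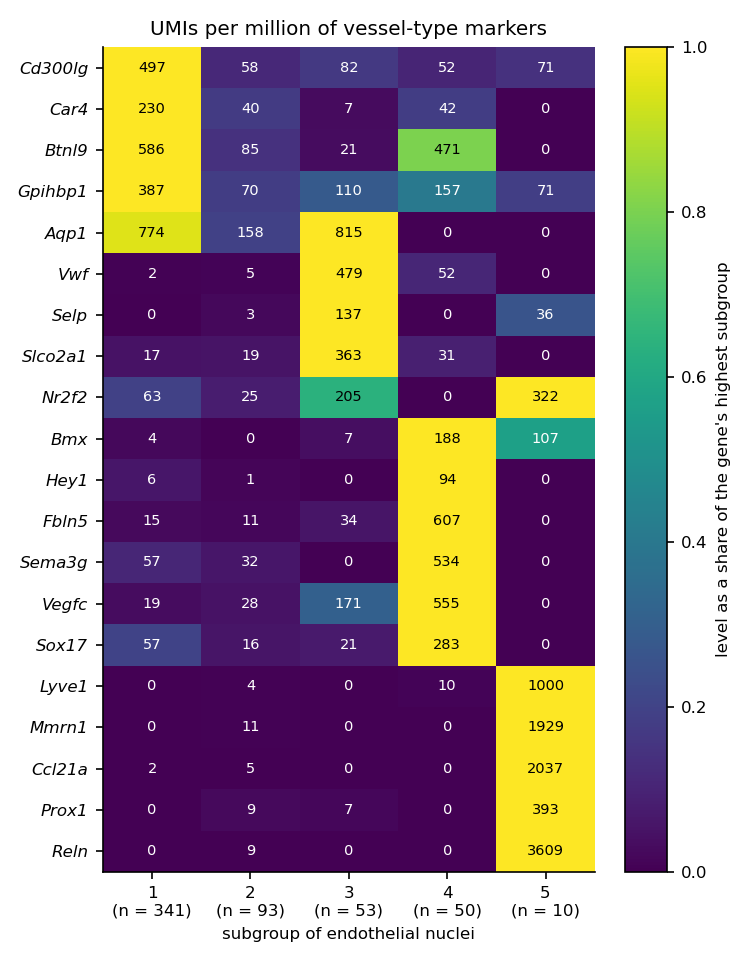
Each cell gives the CPM of a vessel-type marker in a subgroup of endothelial nuclei, coloured by the share of that gene's highest subgroup, with the number of nuclei under each column. Car4, Btnl9, Cd300lg and Gpihbp1 are highest in subgroup 1, Aqp1 is at 774 CPM there and 815 CPM in subgroup 3, and Reln reaches 3609 CPM in the 10 nuclei of subgroup 5.

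The 2 libraries differed in many genes of the endothelial nuclei, and most of these differences were shared with adipocyte nuclei. Of 5497 genes with at least 50 UMIs in endothelial nuclei, 445 (8.1%) were at least 2-fold higher in library 2 and 467 (8.5%) at most 0.5-fold. TMM scaling, which raises the ratio by 0.15 on the log2 scale, gave 591 and 332, and leaving out subgroup 2 gave 319 and 193 of 3487 genes. In adipocyte nuclei, 315 of the 445 and 268 of the 467 also passed 2-fold in the same direction, beside 12.3% (higher) and 8.9% (lower) of all 5497 genes. The thermogenic coactivator Ppargc1a is an example, with 275 UMIs (511 CPM) in library 1 and 6245 (6218 CPM) in library 2, and 778 and 11780 CPM in adipocyte nuclei. The ratio is undefined for 9 genes with 0 UMIs in library 1: Slc7a10, Gpnmb, Atp6v0d2, Sema3a, Ccl21a, Mmrn1, Specc1, Fn1 and Neb. In library 2, the 10 nuclei of subgroup 5 gave 57 of the 62 UMIs of Ccl21a and 54 of the 62 of Mmrn1, and subgroup 4 gave 37 of the 52 of Fn1. Slc7a10, an amino acid transporter of adipocytes, had 165 UMIs in library 2, at least 29.4-fold higher by the limit of 3 UMIs in library 1, and in adipocyte nuclei the ratio was 47.4. The 8 with the lowest ratio were Gm10032, Ano1, Trim67, Coq8a, Mapt, Fbxo31, Ppp1r3b and Trp53inp1. Coq8a, of coenzyme Q synthesis, had 167 and 20 UMIs (311 and 19.9 CPM), a ratio of 0.0641 (0.0821 in adipocyte nuclei). All 8 were also at most 0.244 in adipocyte nuclei.

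Genes highest in endothelial nuclei were read separately. Of these genes, 255 had at least 50 UMIs in endothelial nuclei. Among the 255, 211 lay within 2-fold between the libraries, 32 (12.5%) were higher in library 2 and 12 (4.71%) lower. Over all 5497 genes these shares were 8.1% and 8.5%. Within the capillary-like subgroup 1 the lower genes outnumbered the higher ones, as given below. The names that follow were chosen after their values were seen. Dll4, the Notch ligand of tip cells and arteries (chr2:119325784-119335962, plus strand), had 48 UMIs in library 1 (89.3 CPM) and 14 in library 2 (13.9 CPM), a ratio of 0.156 (0.0795 to 0.288), and its ratio in adipocyte nuclei was 0.944. Aqp1, the water channel of capillaries and venules (chr6:55336432-55348555, plus strand), had 370 and 275 UMIs (688 and 274 CPM), a ratio of 0.398 (0.339 to 0.466). The small heat shock protein Hspb1 had 242 and 51.8 CPM, and Depp1, a target of FOXO factors, 156 and 41.8 CPM. In adipocyte nuclei the ratios of Aqp1, Hspb1 and Depp1 were 0.779, 0.870 and 0.380, so Depp1 was lower there too. In the other direction, Klf2 and Klf4, the KLF factors that respond to flow, had 100 and 307 CPM and 83.7 and 260 CPM, ratios of 3.05 (2.28 to 4.16) and 3.10 (2.26 to 4.36). Eng had a ratio of 2.64 (2.16 to 3.26). These ratios in adipocyte nuclei were 2.94, 4.90 and 6.28, from 4.27 to 5.02 CPM in library 2.

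Since subgroup 2 took more of the UMIs of library 1, the same genes were read within the capillary-like subgroup 1 (137809 and 389296 UMIs, 53 and 288 nuclei). Dll4 was at 268 CPM in library 1 and 20.5 CPM in library 2, a ratio of 0.0765 (0.0308 to 0.167), and Aqp1 at 1887 and 380 CPM, a ratio of 0.202 (0.164 to 0.248). Hspb1 and Depp1 were also lower in library 2, at 0.100 and 0.170. Klf4 stayed above 2-fold at 2.25 (1.47 to 3.58), Eng went to 1.67 (1.29 to 2.18) and Klf2 to 1.58 (1.0997 to 2.32). Adgrl4, at 0.579 in all endothelial nuclei, was 0.381 (0.332 to 0.436) in subgroup 1 and 0.366 without subgroup 2, and Gpihbp1 was 0.572 in subgroup 1. Egfl7 showed no difference larger than counting error there, at 0.968 (0.775 to 1.22). Of 223 endothelial-highest genes with 50 UMIs in subgroup 1, 6 were at least 2-fold higher and 34 at most 0.5-fold in library 2, beside 8.62% and 5.43% of all 2412 genes with 50 UMIs there. The order was thus the reverse of that over all endothelial nuclei, where 32 were higher and 12 lower. The summed lists went both ways. Without subgroup 2, the 12 endothelial markers were lower in library 2, at 8631 CPM in library 1 and 6165 CPM in library 2. The adipocyte list was higher in library 2 (5952 and 10519 CPM), as was the arterial list (1628 and 1933 CPM). The part of these shifts in the ratios of single genes was not tested. Genotype, depth and mice all go with the library, and these cannot be told apart.

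**Figure D5:**
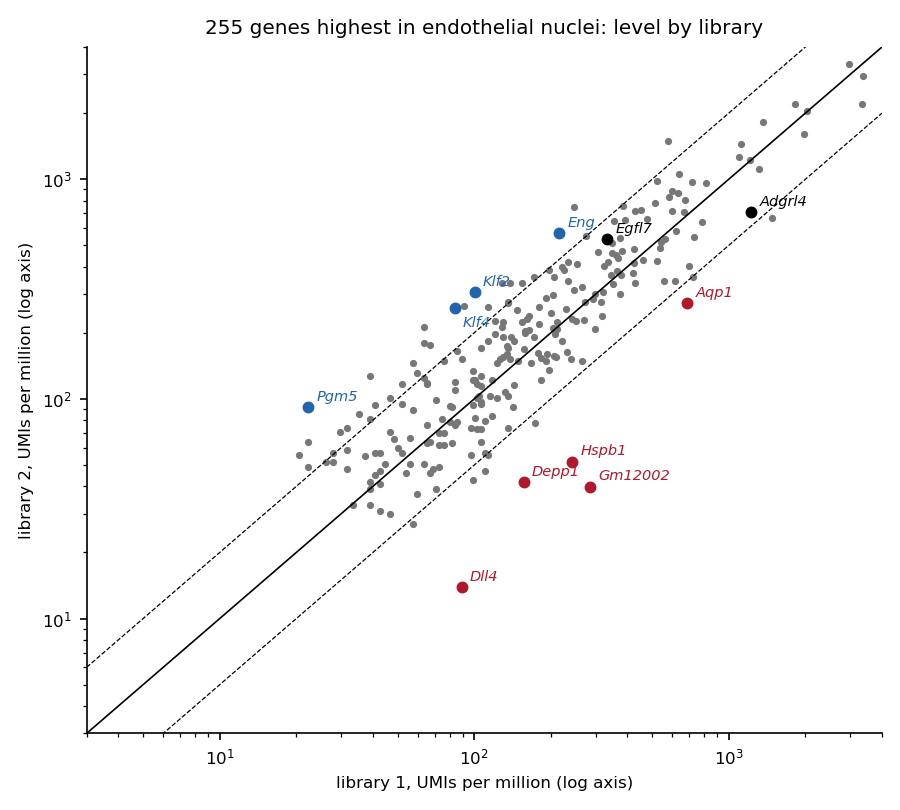
Each point is 1 of 255 genes highest in endothelial nuclei, placed by its CPM in library 1 (x) and library 2 (y) on log axes, with lines at equality (solid) and at 2-fold (dashed). Most genes lie between the dashed lines, with Dll4, Gm12002, Hspb1, Depp1 and Aqp1 below them and Eng, Klf2, Klf4 and Pgm5 above.

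The same rule applied to the aging matrix, whose libraries had no part in choosing the genes, took 15869 of 30000 barcodes (52.9%), with 2239, 6436 and 7194 in the libraries that end in 1, 2 and 3. No label ties these endings to an age. Their endothelial nuclei held less adipocyte RNA, with 2633, 3045 and 1388 CPM of the 17 adipocyte genes, and 8058, 5650 and 8743 CPM of the 12 endothelial markers. Rules of the same form took 2827 mural, 479 stromal and 1022 adipocyte nuclei. Libraries 2 and 3 gave only 82 and 93 of the stromal and 342 and 92 of the adipocyte nuclei. The paper describes Ucp1-high and Ucp1-low adipocyte populations in its aging nuclei, and whether the rule picks the same cells in this matrix was not tested. Against mural, stromal and adipocyte nuclei of the same matrix, a comparison chosen after seeing the data, all 12 markers were at least 2-fold higher in each of the 3 libraries, as were 922 of all 13286 genes (6.94%). Adgrl4 had 1987, 1219 and 2889 CPM there, ratios of 106, 8.18 and 11.9, and Cldn5 185, 298 and 280 CPM, ratios of 28.4, 2.93 and 3.49. Of the 286 genes counted as higher at 3 months, 125 (43.7%) passed, and of the 478 with the minimum of 20 UMIs, 298 (62.3%). The 478 had been admitted by their endothelial counts, so their share is not set against that of all genes. Against all other barcodes, only 3 of the 286 passed (Adgrl4, Ccdc85a and Cdh13), beside 49 of 13579 genes (0.361%), where the 12 markers had ratios from 1.50 to 2.09 in libraries 2 and 3 and from 3.27 to 7.68 in library 1. Adipocyte nuclei held 127, 871 and 972 CPM of the 12 endothelial markers in these libraries, against 19.2 and 37.8 CPM at 3 months, and the part of free endothelial RNA in the low ratios was not tested. There are 99 barcode sequences that occur in more than one library of the aging matrix.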

How the data were processed

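Nuclei were sorted from mouse iBAT and sequenced with the 10x Genomics 3′ assay. The authors aligned reads to mm10 with Cell Ranger 6.1.2 and deposited raw UMI counts per gene and barcode, 20307 barcodes and 116053743 UMIs over 32285 genes in the 3-month matrix, 76195924 in library 1 and 39857819 in library 2. The methods force 10000 cells per library, whereas this matrix has 11201 and 9106. They also keep 200 to 2000 UMIs and 100 to 3000 genes, which leaves 0 and 2763 barcodes (0 and 327 endothelial nuclei), so that filter was not applied. The annotation release is not given in the sources used here. The authors' normalization and clustering in Seurat 4.1.0 are not part of the counts, and each barcode keeps only its library.

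Counts were summed over nuclei in Python (3.11.15) using pandas (2.3.3), scipy (1.17.1) and numpy (2.4.6). CPM sums carry Poisson, ratios conditional binomial and shares Clopper-Pearson intervals, all exact at 95%. A count of 0 was given the level of 3 UMIs as its limit. A gene was counted as higher or lower at 2-fold or 0.5-fold in both libraries, with at least 50 UMIs and 5 expected in endothelial nuclei of each library. The 15 rule genes were left out of counts. Named genes were those of 28 lists, the 20 highest and 10 lowest ratios, the 8 at each end between libraries (genes at 0 UMIs in library 1 first), and the 5 leading genes of each subgroup. The nuclei, lists and comparisons were chosen with earlier results of these data known. Subgroups came from Leiden clustering (resolution 0.5, 2000 variable genes, 20 principal components, 15 neighbours, fixed seed) in scanpy 1.11.5, and doublets were scored with scrublet there and kept. TMM factors came from edgeR 4.0.16 in R 4.3.3 on summed counts, without its test. Promoters were read from RefSeq windows. The counting scripts were tested on simulated data. A few list genes, and the counts of lists that need them, are not reported here.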

Additional observations from a re-analysis of the deposited data

How the results depend on the processing

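No paired analysis was possible because there is 1 library per genotype, the labels carry no replicate numbers and no result comes from a test. The 286 genes higher in endothelial nuclei became 475 in library 1 alone, 977 in library 2 alone, 478 with 20 UMIs per library and 160 in nuclei at or below the median depth. The 115 lower genes became 579 and 1007 in single libraries, 396 with every nucleus weighted equally, 72 against adipocyte nuclei alone, 189 with TMM factors, 539 without subgroup 2, 475 in the shallower nuclei, and 2 with 20 UMIs per library (Pdzrn3 and Bmper). The 912 genes that differed between libraries became 7502 with no UMI minimum, 1900 with 20 UMIs, 533 without genes higher in adipocyte nuclei or on the adipocyte list, 512 without subgroup 2 and 248 in the shallower nuclei. The 270 genes highest of 5 types became 433 without subgroup 2. The 547 nuclei became 213 among barcodes of at least 2053 UMIs, and 5 subgroups became 8 at resolution 1.0. The lymphatic-like subgroup 5 overlapped its best match by 10.3% at resolution 0.3 and by 17.5% without removal of library means. Subgroup 2 overlapped by 45.6% in the latter setting. Subgroup 1 overlapped by 39.2% at resolution 1.0 and by 52.3% with 10 principal components. The library ratios within subgroup 1 were read for the main grouping only. The share of windows with ETS letters went from 2.05% to 3.97% with 20 UMIs per library. The 3 genes that passed in the aging matrix became 0 with 3 or more UMIs of the rule genes, 13 with 6 or more, 6 with 400 to 2000 UMIs, and 125 against mural, stromal and adipocyte nuclei. Against adipocyte nuclei, Lin7a (1.20) and Meg3 (1.17) turned above 1. The causes were not tested. The 20-UMI minimum, the depth limits, the omission of subgroup 2 and the aging comparison with 3 types were added after seeing the data. A vessel type with 0 of the 102 nuclei of library 1 could still make up to 2.94% of them by the limit of 3 counts.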

Other observations

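Within endothelial nuclei of the 3-month matrix, 9 genes with at least 50 UMIs had 0 in library 1 and none had 0 in library 2. Arterial markers reached 3 UMIs from at least 2 genes in 57 of 102 nuclei of library 1 (55.9%). In library 2 they did so in 123 of 445 nuclei (27.6%). Venous markers did so in 52 (51.0%) and 93 (20.9%), and these shares move with the depth of the nuclei. The summed arterial list ran the other way, at 917 and 1397 CPM, and the arterial-like subgroup 4 held 2 and 48 nuclei. The summed venous list was at 915 and 897 CPM. Mitochondrial genes made up 0.365% of endothelial UMIs in library 1 and 0.242% in library 2.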
